A study of Helicoverpa armigera with 12 samples.

Results

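The data compared adult males with adult females of the cotton bollworm *Helicoverpa armigera*, a noctuid moth, across the contigs of a transcriptome assembled from all stages of the study. A contig is 1 assembled transcript sequence, and contigs that share a unigene number are candidate isoforms of 1 gene. The members were all 25190 contigs, of 99711 in the whole table, with a mean of at least 1 FPKM (fragments mapped to a transcript, divided by its length and by the mapped fragments of the library) over the 4 adult libraries. They belonged to 16376 unigenes. The lowest contig kept had a mean of 1.0 FPKM and the highest contig left out a mean of 0.9998 FPKM.

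Each library was made from a pool of whole bodies. The adults were taken on day 1 after eclosion, in pools of 10 moths, with 2 pools of males (replicates 1 and 2) and 2 pools of females (replicates 3 and 4). The study also held 4 pools of 30 larvae of the 1st instar and 4 pools of 10 larvae of the 5th instar, whose sex the labels did not give and whose levels are set beside the adult ones. All animals were of the same species and untreated, and no mutant or transgenic line was used. In whole bodies, fewer cells of a type and less RNA per cell cannot be told apart. The p-values rested on the spread between 2 pools a sex, drawn toward a trend of spread over all contigs. The pools gave 2 degrees of freedom and the trend 2.01.

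Adult moths of both sexes share most tissues, such as flight muscle, fat body, gut, nervous system and eyes, and differ above all in the reproductive tract. In males the testis makes sperm, whose tail is built on an axoneme of tubulin, tektin and dynein, and the accessory glands and ejaculatory ducts make the seminal fluid that is passed to the female at mating. In females the ovary holds germ cells and nurse cells, and the growing oocytes take up yolk proteins, chiefly vitellogenin, from the hemolymph. Moth females also make sex pheromone in an abdominal gland, and males detect it with their antennae.

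The labels were checked first against transcripts that mark each sex. The contig described as vitellogenin (c63919_g1_i1), the main yolk precursor, had 2.23 and 0.505 FPKM in the male pools, against 1209 and 465 FPKM in the female pools. The contig of the pheromonostatic peptide PSP-1 (c52738_g1_i2), a male peptide known in a related moth to suppress pheromone production in mated females, had 5129 and 5505 FPKM in the male pools, against 0.526 and 0.421 FPKM in the female pools. Both markers stood on the side that the labels gave, in every adult library.

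The summed FPKM of a library was 648908 and 688947 in the male pools and 542615 and 447094 in the female pools, so the values were not scaled to one sum. Contigs above 0 numbered 57155 and 60232 in the male pools and 49756 and 57623 in the female pools. The deposited values carry no read depth, but the value of 1 fragment, taken from the commonest ratio between low values, was about 1.48 and 1.08 times that of female replicate 3 in the male pools and 0.796 times in female replicate 4. Over the log2(FPKM + 1) values of all members, Pearson's r was 0.833 between the male pools, 0.809 between the female pools and 0.518 to 0.635 between a male and a female pool. The points of these correlations were contigs and not replicates. Among the larval libraries, 5th instar replicate 1 stood apart from the other replicates of its stage in the contigs higher in adult males, and the larval levels are given with it and without it.

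Of the 25190 contigs, 1581 (6.28%) were higher in males and 443 (1.76%) were higher in females, which is 2024 contigs or 8.03% in all (limma, adjusted p below 0.05). Both male pools lay above or below both female pools in every one of these 2024 contigs, and in 55.2% of all contigs. The differences of called contigs were large, since the smallest was 1.5 on the log2(FPKM + 1) scale in the male direction and 1.54 in the female direction. The median difference of all contigs, male minus female, was 0.22. With all libraries scaled to one sum that median was -0.1 and the calls were 1459 higher in males and 884 higher in females, and with quantile normalization it was -0.11 and the calls were 1413 and 818. So males gave 78.1% of the calls as deposited, 62.3% after scaling to one sum and 63.3% after quantile normalization. Without female replicate 3 or without female replicate 4, 0 contigs passed the adjusted threshold in limma, with 4798 and 7155 contigs at an unadjusted p below 0.05. Without male replicate 1 or male replicate 2 the contigs higher in males were 1989 and 1975 and those higher in females were 13 and 13.

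**Figure D1:**
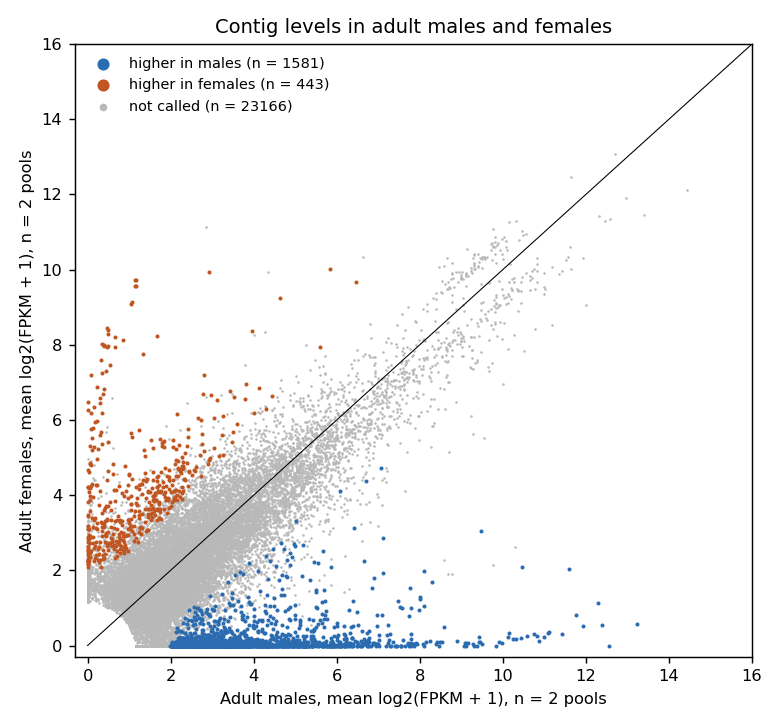
Mean log2(FPKM + 1) of each of the 25190 contigs in adult males (x axis, 2 pools) and adult females (y axis, 2 pools), with contigs higher in males in blue, higher in females in orange and not called in grey. Most of the 1581 contigs higher in males lie along the x axis, at or near 0 in females, while the 443 contigs higher in females spread further from their axis.

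The 2 sets differed in how completely the other sex lacked them. Among contigs higher in males, 593 (37.5%) were listed at 0 in both female pools and 1488 (94.1%) had a female mean below 1 FPKM. Among contigs higher in females, 28 (6.32%) were listed at 0 in both male pools and 215 (48.5%) had a male mean below 1 FPKM. The contigs higher in males held 17.1% and 17.2% of the summed FPKM of the male pools, against 0.0913% and 0.0894% in the female pools. The contigs higher in females held 0.148% and 0.168% in the male pools, against 4.65% and 4.38% in the female pools. Descriptions that name a protein were rarer among contigs higher in males, at 28.8%, than among contigs higher in females, at 60%, and stood at 47.5% of all contigs tested. The members of each set were chosen by the same values, so these shares are descriptions.

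The functional lists showed where the called contigs fell. Of 28 lists of words sought in the descriptions, 18 held more members higher in males than in females, 5 the reverse, and 5 neither. Males gave 78.1% of all calls, so this count alone does not set a list apart. In the sarcomere, proteasome, immune, cytochrome P450, transposable element and cuticle lists the male share lay below the 6.28% of all contigs. The 18 lists were 15 with libraries scaled to one sum and 14 with quantile normalization. The largest shares higher in males were 36.7% of the seminal fluid list, 30.0% of the testis and sperm list, 23.5% of the glycolysis list, 22.6% of the oxidative phosphorylation list and 20.9% of the pheromone and odorant binding proteins, beside 6.28% of all contigs. The largest shares higher in females were 29.8% of the germline list, 18.5% of the DNA replication and cell cycle list and 16.7% of the yolk and eggshell list, beside 1.76% of all contigs. The plot of shares by list shows all of them.

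**Figure D2:**
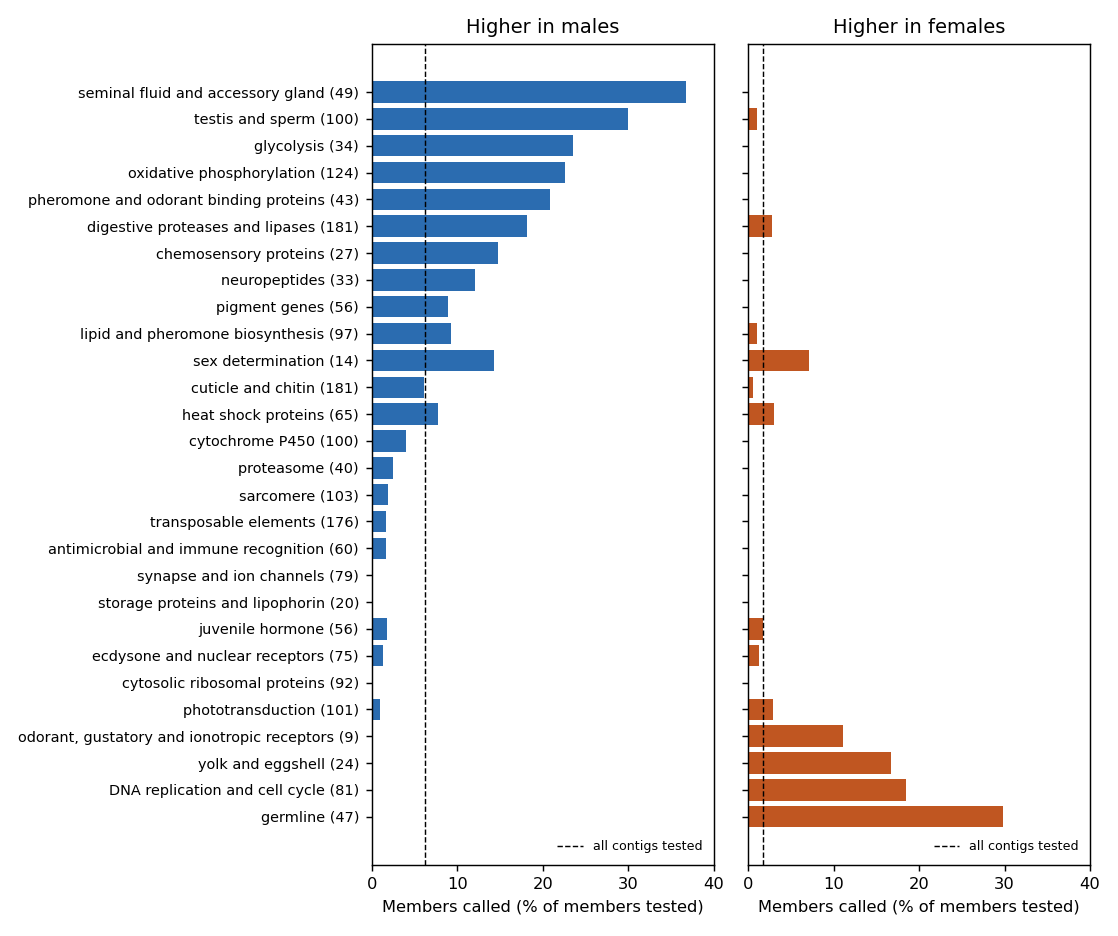
Share of the tested members of each functional list that was called higher in males (left) or higher in females (right), in percent, with the number of members tested in parentheses and the share over all 25190 contigs as a dashed line. The seminal fluid and testis lists lead on the left at 36.7% and 30.0%, and the germline list leads on the right at 29.8%.

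Seminal fluid proteins had the largest differences of any described contigs. In the list of 49 tested contigs, 18 were higher in males, 0 were higher in females, and the median difference was 1.95 on the log2(FPKM + 1) scale, beside 0.22 for all contigs. Of the 19 contigs described as a seminal fluid protein with the name HACP and a number, or as PSP-1, 16 were higher in males and the median difference was 5.59. Of the 14 contigs described as a seminal fluid protein with the name CSSFP, 1 was higher in males and the median was 0.98. The list also took in 13 chemosensory proteins, through a Swiss-Prot name that refers to the ejaculatory bulb of a fly, of which 1 was higher in males.

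PSP-1 differed by 11.82 ± 0.294 (SE) on the log2(FPKM + 1) scale (limma, adjusted p = 0.00426), the largest difference of a described contig. All 3 contigs of its unigene were higher in males, and since isoforms share reads their separate levels are uncertain. HACP021 (c50500_g1_i1) had 3576 and 4278 FPKM in the male pools, against 0.565 and 0.314 FPKM in the female pools. HACP001 (c55618_g1_i1), which resembles trypsin, had 121 and 132 FPKM in the male pools, against 0.071 and 0 FPKM in the female pools. HACP028 (c61408_g2_i1) had 53.3 and 51.8 FPKM in the male pools and was listed at 0 in both female pools. The called members of the list summed to 15952 and 17124 FPKM in the male pools, against 8.94 and 1.58 FPKM in the female pools.

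**Figure D3:**
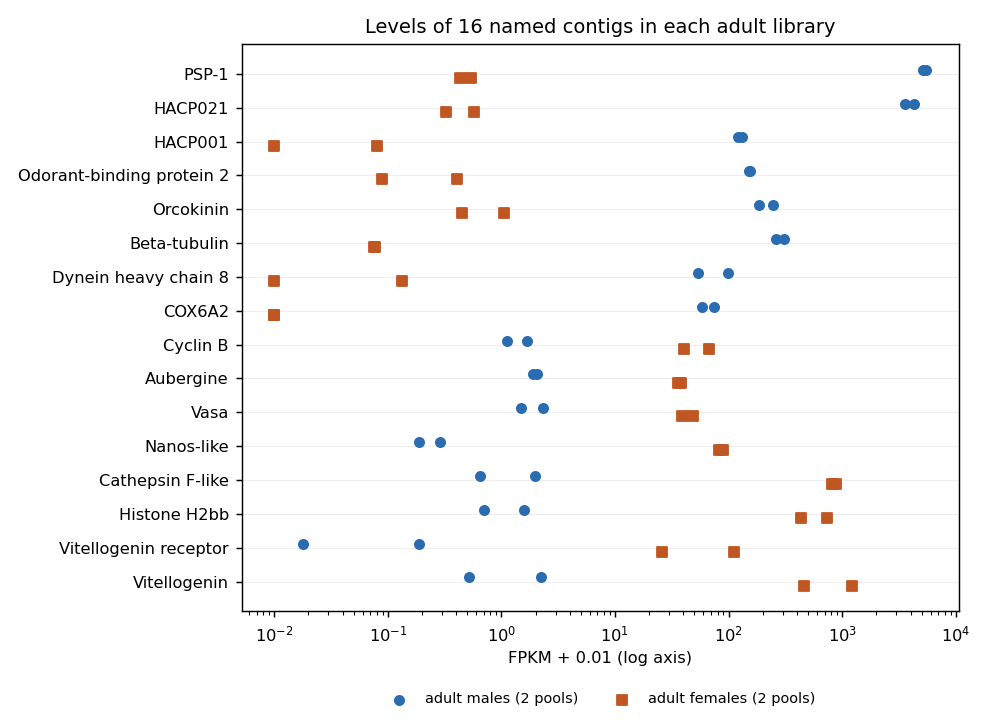
FPKM of 16 named contigs in each adult library, on a log axis with 0.01 added so that values listed at 0 can be drawn, with the 2 male pools as blue circles and the 2 female pools as orange squares. The upper 8 contigs are higher in males and the lower 8 higher in females, and the pools of the 2 sexes do not overlap in any of them.

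Several of the contigs with the largest differences in males had descriptions that disagreed among themselves or came from distant organisms. The contig c36745_g1_i1, described as NADH dehydrogenase subunit 4, a mitochondrially encoded respiratory protein, had 1373 and 1377 FPKM in the male pools, against 0.123 and 0.168 FPKM in the female pools, but its protein domain match was to the juvenile hormone binding family. The contig c44479_g2_i1, matched to a bacterial transcriptional regulator, had 3034 and 3123 FPKM in the male pools, against 10.2 and 0.517 FPKM in the female pools. The contig c70973_g1_i1, matched to an asparagine-rich antigen, had 624 and 485 FPKM in the male pools and was listed at 0 in both female pools. Contigs described as an extensin-like protein EPR1 (c66086_g1_i1), a glycine-rich cell wall protein (c56630_g1_i5) and a fibrocystin-L-like protein (c45220_g1_i1) differed by 10.15, 9.91 and 9.1 on the log2(FPKM + 1) scale. The largest difference of all belonged to c50697_g2_i3, a contig with no description chosen after its values were seen, which had 9335 and 9872 FPKM in the male pools, against 0.247 and 0.786 FPKM in the female pools.

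Testis and sperm transcripts formed the other large male group. Of 100 tested members, 30 were higher in males and 1 was higher in females, with a median difference of 1.12. The member higher in females, a testis-expressed sequence 10-like protein (c64927_g2_i2), had 0.694 and 0.669 FPKM in the male pools, against 5.6 and 5.29 FPKM in the female pools. The 69 members that were not called summed to 443 and 548 FPKM in the male pools, against 423 and 403 FPKM in the female pools, and the 30 higher in males summed to 495 and 775 FPKM, against 3.05 and 2.75 FPKM.

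Contigs described as an axonemal dynein, a sperm protein and a testis-specific kinase were among them. Dynein heavy chain 8 (c42691_g1_i1), an axonemal motor, had 53.8 and 99.7 FPKM in the male pools, against 0.123 and 0 FPKM in the female pools. The contig whose Swiss-Prot match was a male-specific sperm protein of *Drosophila* (c66236_g1_i1) had 140 and 315 FPKM in the male pools, against 0 and 0.095 FPKM in the female pools. A testis-specific serine/threonine-protein kinase (c37510_g1_i1) had 43.7 and 50.5 FPKM in the male pools, against 0.078 and 0.051 FPKM in the female pools, and differed by 5.49 ± 0.264 on the log2(FPKM + 1) scale (SE; limma, adjusted p = 0.00426).

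Some tubulins, the building blocks of microtubules, were among the contigs with the largest differences. In a word set chosen after the calls were seen, 8 of 31 tubulin contigs were higher in males and 0 were higher in females, and the median difference was 0.29, beside 0.22 for all contigs. A beta-tubulin (c60145_g1_i1) had 261 and 309 FPKM in the male pools, against 0.065 and 0.067 FPKM in the female pools. A beta-2C tubulin (c60243_g2_i1) had 147 and 238 FPKM in the male pools and was listed at 0 in both female pools. An alpha-tubulin (c56081_g2_i1) had 147 and 178 FPKM in the male pools, against 0.104 and 0.039 FPKM in the female pools. A protein with MORN repeats (c44552_g1_i1) had 223 and 157 FPKM in the male pools and was listed at 0 in both female pools.

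Oxidative phosphorylation, the mitochondrial machinery that makes ATP, held called contigs that were near 0 in females. The calls were made on these same values, so the low female levels are a description and do not show 2 classes of contig. Of 124 tested members, 28 were higher in males and 0 were higher in females, with a median difference of 0.92. The contigs not called, 96 in number, had differences from -0.52 to 3.03 with a median of 0.85. Of these, 82 had a female mean of at least 10 FPKM. Leaving out c36745_g1_i1 with its juvenile hormone binding domain, the 27 contigs higher in males summed to 474 and 558 FPKM in the male pools, against 3.41 and 2.32 FPKM in the female pools. The 96 contigs not called summed to 82671 and 103924 FPKM in the male pools, against 31224 and 61079 FPKM in the female pools.

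Among the male contigs, cytochrome c oxidase subunit 6A2 (c47310_g1_i1) had 57.8 and 73.8 FPKM in the male pools and subunit 7A1 (c7946_g1_i1) had 57.1 and 62.1 FPKM, both parts of the terminal enzyme of the respiratory chain, and both were listed at 0 in the female pools. The contig c50545_g1_i1, whose Swiss-Prot match was succinate dehydrogenase, an enzyme of the chain and of the citric acid cycle, had 39.999 and 44.6 FPKM in the male pools, against 0.013 and 0.022 FPKM in the female pools. A contig of ATP synthase subunit beta (c58563_g1_i1) had 5.66 and 5.34 FPKM in the male pools and was listed at 0 in both female pools.

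Glycolysis, which splits glucose in the cytosol, also held called contigs near 0 in females, at lower male levels. Of 34 tested members, 8 were higher in males and 0 were higher in females, with a median difference of 1.18. The contig whose Swiss-Prot match was a testis-specific glyceraldehyde-3-phosphate dehydrogenase (c58008_g1_i1) had 29.6 and 31.7 FPKM in the male pools, against 0 and 0.022 FPKM in the female pools. An enolase-like contig (c49566_g1_i1) had 19.0 and 24.6 FPKM in the male pools, against 0 and 0.017 FPKM in the female pools. Of the 8 contigs, 4 belonged to 1 unigene (c62063_g1).

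**Figure D4:**
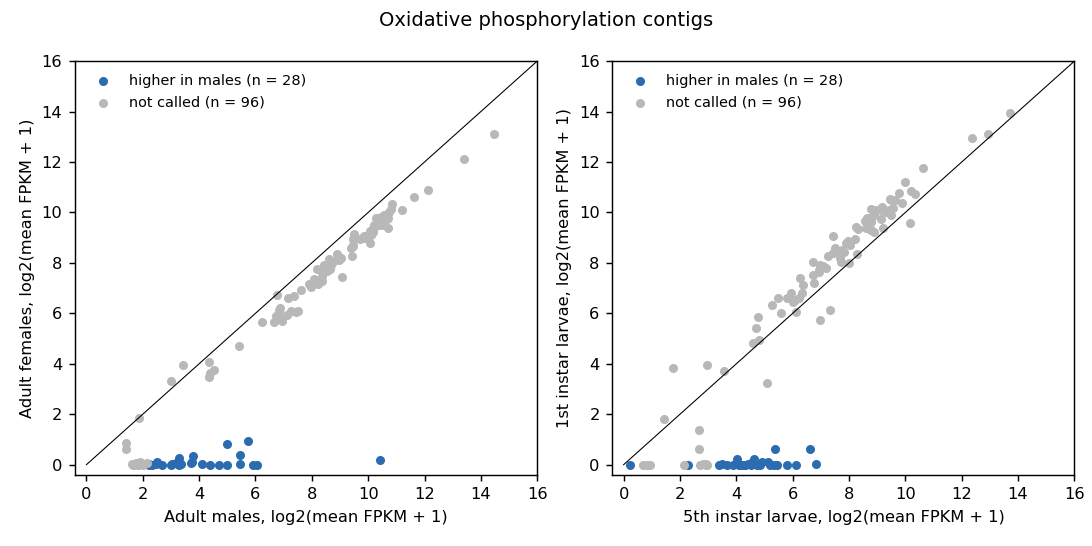
Log2(mean FPKM + 1) of the 124 oxidative phosphorylation contigs in adult males and adult females (left) and in 5th and 1st instar larvae (right), with the 28 contigs higher in males in blue and the 96 not called in grey. On the left the blue contigs lie near 0 in females, and on the right the same contigs lie near 0 in 1st instar larvae.

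Of 65 tested heat shock proteins, which help other proteins fold, 5 (7.69%) were higher in males and 2 (3.08%) were higher in females, close to the 6.28% and 1.76% of all contigs, with a median difference of -0.41. Heat shock protein 70-3 (c60751_g1_i1) had 46.0 and 54.0 FPKM in the male pools, against 0.045 and 0.051 FPKM in the female pools. A small heat shock protein (c53750_g1_i1) had 28.6 and 39.7 FPKM in the male pools, against 0.441 and 0.477 FPKM in the female pools. In the other direction, the small heat shock protein G16 (c90882_g1_i1) had 5.69 and 9.33 FPKM in the male pools, against 71.3 and 58.9 FPKM in the female pools. The proteasome list held 1 call in 40 members, a subunit alpha type-7-1 (c48332_g1_i2) with 3.04 and 5.4 FPKM in the male pools, against 0 and 0.022 FPKM in the female pools.

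Proteases and lipases, listed as digestive enzymes, gave 33 (18.2%) of 181 tested members higher in males and 5 (2.76%) higher in females. The shares of all contigs were 6.28% and 1.76%, and the median difference of the list was 0.71. The members with the largest differences included the seminal fluid protein HACP001 above, so the name of the list does not say where these enzymes act. A trypsin-6-like contig (c55399_g1_i1) had 156 and 143 FPKM in the male pools, against 0.37 and 0.556 FPKM in the female pools. A carboxypeptidase B-like contig (c56299_g1_i1) had 98.1 and 111 FPKM in the male pools, against 0.396 and 0.14 FPKM in the female pools. Of the 5 contigs higher in females, 4 belonged to 1 unigene of serine carboxypeptidases (c63652_g1), of which c63652_g1_i2 had 0.567 and 0.264 FPKM in the male pools, against 350 and 176 FPKM in the female pools.

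Odorant carriers, small secreted proteins that bind scents and pheromones, were also more often higher in males. Of 43 tested pheromone and odorant binding proteins, 9 were higher in males and 0 were higher in females, with a median difference of 0.59. Odorant-binding protein 2 (c51518_g1_i1) had 151 and 155 FPKM in the male pools, against 0.396 and 0.079 FPKM in the female pools. The pheromone-binding protein PBP1 (c55509_g1_i3), a carrier of the female pheromone in the antennae of male moths, had 10.5 and 14.4 FPKM in the male pools, against 3.0 and 2.49 FPKM in the female pools, and differed by 1.83 (limma, adjusted p = 0.0475).

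Of 27 chemosensory proteins, 4 (14.8%) were higher in males and 0 were higher in females, with a median of 1.06. The shares of all contigs were 6.28% higher in males and 1.76% higher in females. Chemosensory protein 8 (c53956_g1_i3) had 249 and 255 FPKM in the male pools, against 2.74 and 0 FPKM in the female pools. Of 9 receptor contigs that passed the level filter, out of 85 in the table, 1 (11.1%) was called, and it was higher in females. This contig, described as olfactory receptor 29 (c56420_g1_i1), had 1.51 and 3.06 FPKM in the male pools, against 21.0 and 14.7 FPKM in the female pools. Its Swiss-Prot match was histone H2A and its protein domains included a core histone domain, so no called contig of the list was a receptor by all its matches.

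Of 33 neuropeptide contigs, 4 (12.1%, beside 6.28% of all contigs) were higher in males, and all 4 were described as orcokinin, a peptide with roles in the gut and in molting of insects. Among them, c54940_g2_i3 and c54940_g1_i1 share the assembly number c54940, so the calls may come from fewer than 4 genes. Orcokinin (c54940_g2_i3) had 184 and 244 FPKM in the male pools, against 1.05 and 0.438 FPKM in the female pools. Of 79 contigs of synapses and ion channels, 0 were called in limma and 19 had an unadjusted p below 0.05. The highest of that list, an Atg8 contig (c85866_g1_i1) of autophagy, had 202 and 281 FPKM in the male pools and 128 and 162 FPKM in the female pools (limma, adjusted p = 0.312).

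In the juvenile hormone list, 1 of 56 members (1.79%) was higher in males and 1 (1.79%) was higher in females. The shares of all contigs were 6.28% and 1.76%. Juvenile hormone binding protein (c53616_g1_i1), the hemolymph carrier of the hormone, had 755 and 675 FPKM in the male pools, against 2.76 and 17.1 FPKM in the female pools. Juvenile hormone epoxide hydrolase (c60959_g1_i1), which breaks the hormone down, had 0.321 and 0.435 FPKM in the male pools, against 21.0 and 19.0 FPKM in the female pools. In the ecdysone list, 1 of 75 members (1.33%) was higher in each sex. Ecdysteroid 22-kinase (c51787_g1_i1), which makes the storage form of molting hormone found in eggs, had 0.634 and 1.72 FPKM in the male pools, against 24.4 and 17.2 FPKM in the female pools.

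Fatty acid enzymes include those that make moth pheromones. Of 97 tested members, 9 (9.28%) were higher in males and 1 (1.03%) was higher in females, near the 6.28% and 1.76% of all contigs. The median difference was 0.25. A delta-11 desaturase contig (c60556_g1_i1), of the class that places the double bond in many moth pheromones, had 31.7 and 17.3 FPKM in the male pools, against 2.5 and 2.18 FPKM in the female pools (limma, adjusted p = 0.0309). A fatty acyl-CoA reductase (c61406_g2_i2) had 10.4 and 11.4 FPKM in the male pools, against 0.013 and 0.129 FPKM in the female pools. An elongase of very long chain fatty acids (c53471_g1_i1) had 14.3 and 15.9 FPKM in the male pools, against 0.032 and 0.146 FPKM in the female pools.

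The sarcomere, storage protein, cuticle and cytochrome P450 lists lay near or below the 6.28% of all contigs that were higher in males. Of 103 sarcomere contigs, parts of muscle, 2 (1.94%) were higher in males, both of 1 myosin regulatory light chain unigene (c54992_g1). Of 20 storage protein and lipophorin contigs, 0 were called in limma and 7 had an unadjusted p below 0.05, and the highest, apolipophorin III (c75683_g1_i1), a lipid carrier of flying insects, had 8823 and 7337 FPKM in the male pools and 3893 and 3819 FPKM in the female pools (limma, adjusted p = 0.084). Of 181 contigs of cuticle and chitin, 11 (6.08%) were higher in males and 1 (0.552%) was higher in females. A chitinase (c61813_g1_i1), an enzyme that cuts chitin, had 305 and 245 FPKM in the male pools, against 1.8 and 4.57 FPKM in the female pools. Of 100 cytochrome P450 contigs, 4 were higher in males, all of the unigene of CYP6AB9 (c61328_g1).

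Of 101 phototransduction contigs, 1 (0.99%) was higher in males and 3 (2.97%) were higher in females, beside 6.28% and 1.76% of all contigs. Of 6 opsin contigs tested, 0 were called in limma. The contig of the long wavelength-sensitive opsin (c52406_g1_i1), a visual pigment of the eye and the highest opsin contig in adults, had 145 and 115 FPKM in the male pools and 120 and 60.7 FPKM in the female pools, with a difference of 0.6 (limma, adjusted p = 0.495). A chaoptin-like contig (c64000_g1_i1), named for an adhesion protein of photoreceptors, had 1.44 and 2.1 FPKM in the male pools, against 19.9 and 12.6 FPKM in the female pools. Of 56 pigment contigs, 5 (8.93%) were higher in males, near the 6.28% of all contigs. They were led by an aromatic-L-amino-acid decarboxylase-like contig (c60336_g1_i1) with 22.0 and 32.5 FPKM in the male pools, against 0.539 and 0.264 FPKM in the female pools.

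Of 60 immune contigs, 1 was higher in males, hemolin (c59240_g1_i1), a hemolymph protein induced by bacteria in moths, with 27.5 and 28.7 FPKM in the male pools, against 6.38 and 3.16 FPKM in the female pools. Of 176 transposable element contigs, 3 were higher in males, among them a mariner transposase (c54291_g1_i2) with 4.18 and 4.18 FPKM in the male pools, against 0.026 and 0.022 FPKM in the female pools. Of 92 cytosolic ribosomal protein contigs, 0 were called in limma and 2 had an unadjusted p below 0.05, but the median difference of the list was -0.8. Both male pools lay below both female pools in 78 of the 92, while 55.2% of all contigs had no overlap in either direction. The list medians of lipid and pheromone biosynthesis, storage proteins, juvenile hormone, ecdysone, phototransduction, pigment genes, proteasome, immune genes, cytochrome P450 and transposable elements lay between 0.14 and 0.42 as deposited and reached 0 or below with libraries scaled to one sum or quantile normalized, so no direction was read from them.

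On the female side, yolk and eggshell transcripts gave 4 of 24 tested members higher in females and 0 higher in males, with a median difference of -0.02. They were vitellogenin, its receptor, an ovarian serine protease and the cell cycle checkpoint kinase 2 contig (c63336_g1_i1), which entered the list through the ovarian name of its Swiss-Prot match alone. Vitellogenin differed by -8.41 ± 0.686 (SE) on the log2(FPKM + 1) scale (limma, adjusted p = 0.00852). The vitellogenin receptor (c65659_g1_i1), which takes yolk precursor into the oocyte, had 0.179 and 0.008 FPKM in the male pools, against 112 and 25.9 FPKM in the female pools. An ovarian serine protease that matched nudel (c65203_g1_i1), which in *Drosophila* helps set the axes of the egg, had 0.194 and 0.054 FPKM in the male pools, against 85.7 and 16.4 FPKM in the female pools. The adjusted p of the protease in limma was 0.0492, with 0.052 under the robust spread and 0.0934 with no level filter, and that of the receptor was 0.0301, with 0.0556 with no level filter, so these calls did not hold there.

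The female pools differed from each other in this group, replicate 3 being the higher in each of these contigs. Egg-specific protein (c54420_g1_i1), a yolk protein made in the ovary of moths, had 16.6 and 2.0 FPKM in the male pools, against 10491 and 487 FPKM in the female pools, and with a difference of -8.28 it did not pass the test (limma, adjusted p = 0.0905). It passed with all 12 libraries in 1 fit, where low larval values enter the spread (limma, adjusted p = 0.0013). It also passed with pools paired by column number (limma, adjusted p = 0.00545), and in no other alternative. Of the other members, 5 were contigs of 1 chorion b-ZIP transcription factor unigene (c59177_g1), 0 of which were called.

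Cysteine proteases led the contigs higher in females. A cathepsin F-like cysteine peptidase (c60179_g1_i4) had 1.95 and 0.637 FPKM in the male pools, against 814 and 875 FPKM in the female pools, and differed by -8.59 ± 0.418 (SE; limma, adjusted p = 0.00426), the largest difference in that direction. A cathepsin B-like proteinase (c58004_g1_i1) had 1.79 and 0.777 FPKM in the male pools, against 872 and 643 FPKM in the female pools. A further cathepsin-like proteinase (c34264_g1_i1) had 1.49 and 0.731 FPKM in the male pools, against 741 and 398 FPKM in the female pools. Cathepsins of this class are known from moth ovaries and eggs, where they can cut yolk proteins.

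Some histones, which package DNA, were also among the contigs with the largest differences in that direction. Of 22 contigs with a core histone domain, a set chosen after the calls were seen, 6 were higher in females and 0 were higher in males, with a median difference of -1.08, and the other 16 were not called. A histone H2B contig described as H2bb (c52684_g1_i1) had 1.57 and 0.7 FPKM in the male pools, against 742 and 433 FPKM in the female pools. A further contig described as H2B, though its Swiss-Prot match was H4 (c49066_g1_i1), had 1.44 and 0.35 FPKM in the male pools, against 483 and 162 FPKM in the female pools. A histone H2A contig (c51684_g1_i1) had 0.515 and 0.373 FPKM in the male pools, against 255 and 121 FPKM in the female pools. Histone genes occur in near-identical copies, so the level of a single histone contig is uncertain. Other large differences were those of a contig matched to a circumsporozoite protein (c51674_g1_i2), a ribonuclease H1-like contig (c56658_g1_i1) and alpha-N-acetylgalactosaminidase (c60154_g1_i1), at -6.9, -6.55 and -6.42.

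Germline transcripts were the list with the largest share higher in females. Of 47 tested contigs of 18 unigenes, 14 were higher in females and 0 were higher in males, with a median difference of -0.87. A nanos-like contig (c62723_g1_i2), of a family that represses translation in germ cells, had 0.179 and 0.28 FPKM in the male pools, against 90.0 and 81.6 FPKM in the female pools. Vasa (c62915_g3_i2), an RNA helicase of germ cells, had 1.49 and 2.31 FPKM in the male pools, against 39.3 and 48.4 FPKM in the female pools. Aubergine (c64246_g2_i4), which binds small RNAs that silence transposons, had 1.9 and 2.07 FPKM in the male pools, against 35.9 and 38.1 FPKM in the female pools (limma, adjusted p = 0.00669). The called germline contigs came from few genes, with 4 contigs of aubergine and 2 of vasa among them.

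Genes of DNA replication and the cell cycle lay lower in males across the whole list. All 81 tested members had a negative difference, and the median was -1.65. In 75 of them both male pools lay below both female pools, while 55.2% of all contigs had no overlap in either direction. Called higher in females were 15 (18.5%), beside 1.76% of all contigs. All 81 were also negative with libraries scaled to one sum, where the median was -1.91, and with quantile normalization. Cyclin B (c61776_g1_i1), which drives entry into mitosis and meiosis, had 1.1 and 1.67 FPKM in the male pools, against 67.1 and 40.9 FPKM in the female pools. Proliferating cell nuclear antigen (c56271_g1_i1), the sliding clamp of DNA polymerase, had 2.13 and 5.34 FPKM in the male pools, against 109 and 45.6 FPKM in the female pools. Aurora kinase A-B (c62507_g1_i1), a mitotic kinase, had 0.582 and 0.575 FPKM in the male pools, against 17.9 and 10.1 FPKM in the female pools.

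Sex determination in moths runs through a doublesex gene spliced differently in males and females. Of 14 tested members of that list, 2 (14.3%) were higher in males and 1 (7.14%) was higher in females. The shares of all contigs were 6.28% and 1.76%, but those of the list rest on few contigs. The contig of sex-lethal c61966_g1_i3, a homolog of the *Drosophila* switch gene, had 14.3 and 23.9 FPKM in the male pools, against 0.39 and 1.39 FPKM in the female pools, a difference of 3.42 (limma, adjusted p = 0.0268). The other contigs of that unigene differed by 2.06 and 2.41 and did not pass (limma, adjusted p = 0.0635 and 0.0562). A contig of the insulin-like growth factor 2 mRNA-binding protein (c11068_g1_i1), the family of the silkworm splicing factor IMP, had 3.76 and 6.48 FPKM in the male pools, against 0.117 and 0 FPKM in the female pools, while the other contigs of that description, c57752_g1_i1 and c57752_g1_i2, differed by -0.91 and -0.95 and were not called.

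A contig described as sry and matched to a Sox factor (c54884_g1_i1) had 2.16 and 1.15 FPKM in the male pools, against 31.5 and 17 FPKM in the female pools. The contig matched to fruitless (c57461_g1_i1), which patterns male courtship in *Drosophila*, had 7.86 and 10.7 FPKM in the male pools and 45 and 27.2 FPKM in the female pools, and its difference of -1.82 missed the threshold (limma, adjusted p = 0.0902). Contigs of intersex (c55676_g1_i1), fem-1 (c59834_g1_i1) and transformer-2 (c61380_g1_i1, c61380_g1_i2 and c61380_g1_i3) differed by -0.81, 1.01, -0.68, -0.85 and -0.67 and were not called, and 1 member, an IMP dehydrogenase (c72973_g1_i1), entered the list through its abbreviation alone, with a difference of 0.37.

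Of the 10 contigs described as doublesex (DSX), 9 had a mean below 1 FPKM and so lay outside the tested set. The contig that passed, an isoform F contig (c63651_g2_i1) whose description did not hold the words of the list, had 0.284 and 0.319 FPKM in the male pools and 1.32 and 2.19 FPKM in the female pools, with a difference of -1.07 (limma, adjusted p = 0.216). The 1 contig described as isoform M had 1.04 and 0.886 FPKM in the male pools, against 0.623 and 0.623 FPKM in the female pools. The 9 contigs described as isoform F summed to 2.35 and 4.6 FPKM in the male pools, against 6.42 and 12.4 FPKM in the female pools. The order of the sexes was opposite in the 2 descriptions in these 4 libraries, without a test, and the isoforms share most of their sequence, so their split is uncertain. In the tested set, 0 unigenes held contigs called in opposite directions in limma, among 266 unigenes with at least 2 called contigs, and 8 unigenes held contigs of opposite sign at an unadjusted p below 0.05.

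The larval libraries showed which of these transcripts were present before adult life. Contigs higher in males had a median of 0 FPKM in 1st instar and 0.226 FPKM in 5th instar larvae, those higher in females 5.8 and 2.76 FPKM, and those not called 2.5 and 3.07 FPKM. Below 1 FPKM in 1st instar larvae were 90.2% of the contigs higher in males, 33.0% of those higher in females and 31.6% of those not called. In 5th instar larvae these shares were 57.3%, 32.5% and 21.1%. Listed at 0 in all 8 larval libraries were 350 (22.1%) of the contigs higher in males, 12 (2.71%) of those higher in females and 746 (3.22%) of those not called.

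The mean of the 5th instar hid a difference between its libraries. In 5th instar replicate 1, 8.92% of the contigs higher in males were at 1 FPKM or more, near the 9.11% to 10.1% of the 1st instar libraries, while in 5th instar replicates 2, 3 and 4 it was 41.3% to 42.6%. For contigs higher in females the shares were 59.6% in replicate 1 and 65.9% to 68.2% in the other 5th instar replicates, and for contigs not called they were 73.7% and 71.5% to 76.2%. Without replicate 1, the share below 1 FPKM in 5th instar larvae was 56.9% for contigs higher in males and 32.1% for contigs higher in females. The sex of these larvae is not given in the labels.

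**Figure D5:**
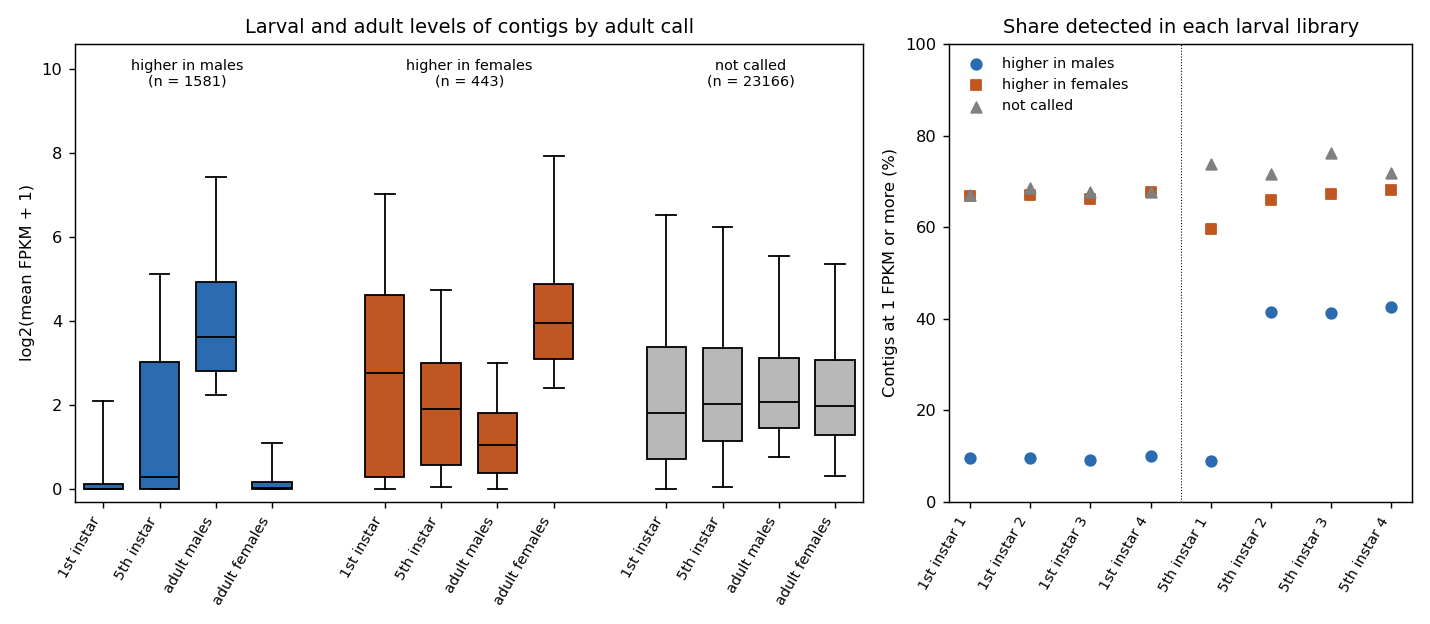
Left, log2(mean FPKM + 1) of contigs by adult call in 1st instar larvae, 5th instar larvae, adult males and adult females, with boxes from the lower to the upper quartile, lines at the median and whiskers at the 5th and 95th percentiles. Right, percent of each set at 1 FPKM or more in each larval library, where 5th instar replicate 1 stands at 8.92% for contigs higher in males and the other 5th instar replicates at 41.3% to 42.6%.

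Male transcripts differed in their larval levels by function. Of the 30 testis and sperm contigs higher in males, 28 had a mean of at least 1 FPKM in 5th instar larvae and 1 had it in 1st instar larvae. Their median was 0.019 FPKM in 5th instar replicate 1 and 10.8, 6.9 and 9.75 FPKM in replicates 2, 3 and 4. Of the 28 oxidative phosphorylation contigs higher in males, 27 reached 1 FPKM in 5th instar larvae and 0 in 1st instar larvae, and without c36745_g1_i1 their median was 0 FPKM in 5th instar replicate 1 and 38.4, 19.0 and 31.4 FPKM in the others. Of the 18 seminal fluid contigs higher in males, 2 reached 1 FPKM in 5th instar larvae and 1 in 1st instar larvae.

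Single contigs showed the same contrast. The male-specific sperm protein contig (c66236_g1_i1) had 0.724 FPKM in 5th instar replicate 1 and 2925, 1714 and 2290 FPKM in replicates 2, 3 and 4, above its 140 and 315 FPKM in adult males. The alpha-tubulin c56081_g2_i1 had 0.102 FPKM in replicate 1 and 124, 120 and 151 FPKM in the others. Dynein heavy chain 8 (c42691_g1_i1) was listed at 0 in all 8 larval libraries. Juvenile hormone binding protein (c53616_g1_i1), in contrast, had 2451 FPKM in replicate 1 and 11579, 6144 and 6933 FPKM in the others, all above its adult levels.

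Female transcripts divided as well. The 15 replication and cell cycle contigs higher in females all reached 1 FPKM in 1st instar larvae and 13 did so in 5th instar larvae, with medians of 15.3 and 3.23 FPKM. Proliferating cell nuclear antigen (c56271_g1_i1) averaged 211 FPKM in 1st instar and 14.9 FPKM in 5th instar larvae. Of the 14 germline contigs higher in females, 8 reached 1 FPKM in 1st instar and 9 in 5th instar larvae. Of the 4 yolk and eggshell contigs higher in females, 1 reached 1 FPKM in each larval stage, the cell cycle checkpoint kinase 2 contig (c63336_g1_i1) with means of 4.94 and 1.85 FPKM.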

How the data were processed

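RNA was measured by RNA-seq in 12 pools of whole bodies, of which the 4 adult pools were compared and the 8 larval pools described. Per the labels and the methods, the authors assembled the reads with Trinity (2.0.6), mapped them with Bowtie (0.12.7) and estimated FPKM values with RSEM (1.1.17). The deposited table gives an FPKM value for each contig in each library, with descriptions from nr, Swiss-Prot and Pfam, and no counts. No genome or contig sequence was used here.

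Contigs with an adult mean of at least 1 FPKM were tested on log2(FPKM + 1) with limma (3.58.1, R 4.3.3, trend), males minus females, in the 4 adult libraries alone, with Benjamini-Hochberg adjustment over all 25190 contigs and calls at an adjusted p below 0.05. Such fold changes understate low contigs. An exact permutation test of 2 against 2 cannot go below a two-sided p of 0.333, so no such test was used. On simulated data with 2000 changed contigs of 25190, the fit recovered 83.1% of those changed by 4 on the log2 scale. It recovered 95.8% of those changed by 8, and 4.08% of calls were unchanged contigs. With 200 changed contigs these values were 45%, 86% and 5.07%. The changed contigs were drawn in both directions from those with a mean log2(FPKM + 1) of at least 2. Smaller changes, or changes in contigs of lower mean, were not simulated. The simulated noise was normal, independent between libraries and drawn from the spread that limma had itself estimated. The share of unchanged contigs among the calls was therefore near its set level by construction. It does not give the error rate of the calls in the real libraries.

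Members and lists were chosen with earlier results of these data known. Lists are words sought in descriptions. The named contigs are the 12 described contigs with the largest differences in each direction, up to 4 called contigs a list (or the highest where none was called) and all sex determination contigs, with at most 1 a unigene in the first 2 cases. Contigs named outside that rule, such as egg-specific protein, PBP1, HACP028, fibrillarin, c50697_g2_i3, c53384_g1_i1, c58563_g1_i1, c64927_g2_i2, c90882_g1_i1 and the opsin, were chosen after their values were seen. Alternatives changed the pseudocount (0.1), the filter, the scaling, the libraries fitted, the spread and the unit (unigene sums), and left out each adult library. Figures were drawn with matplotlib (3.10.9).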

Additional observations from a re-analysis of the deposited data

Results flagged for a closer look

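Among the contigs with the largest differences, 33 groups of 4 larval libraries with any spread were checked for a library far from the others by Dixon's test at the 95% level, and 4 were found, where chance gives about 1 in 20 groups, or 1.65. PSP-1 (c52738_g1_i2) had 0.36 FPKM in 1st instar replicate 3 and was listed at 0 in the other 3 libraries of that stage. The contig matched to a bacterial regulator (c44479_g2_i1) had 1.01 FPKM in 1st instar replicate 2 and 0.3, 0.325 and 0.359 FPKM in the others. The MORN repeat protein (c44552_g1_i1) had 0.43 FPKM in 5th instar replicate 3 and was listed at 0 in the others. The cathepsin F-like contig (c60179_g1_i4) had 0.037 FPKM in 1st instar replicate 1 and was listed at 0 in the others. All 4 values are low, and 3 of the 4 are single values above 0. Where the other libraries of a group are at 0, the test flags a single value above 0 however small it is. The expected 1.65 assumes values without such ties, so the 4 flags beside it do not show an excess.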

How the results depend on the processing

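The 2024 calls were 1301 with no level filter and 1275 with a minimum of 5 FPKM, which tests fewer contigs, and 5193 with all 12 libraries in 1 fit. Contigs higher in males (1581) were 911 with a minimum of 5 FPKM and 3209 with all 12 libraries. Contigs higher in females (443) were 167 with no filter, 884 scaled to one sum, 818 with quantile normalization and 1984 with all 12 libraries. The causes were not tested. Leaving out 1 adult library gave 0 to 2002 calls, 0 to 1989 higher in males and 0 to 13 higher in females, the lone library being assumed to vary like the other sex. Lists with more members higher in males (18) numbered 0 to 19 without 1 library, and those with more higher in females (5) numbered 0 to 1 without 1 library, 3 with no filter, 8 scaled to one sum and 10 with quantile normalization.

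The column numbers pair each male pool with a female pool, but the titles number them 1 to 4. Deviations of same-numbered pools correlated (r = 0.325, of 2 pairs), which is not enough to pair them. A fit with that replicate block called 2149 contigs.

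Of the contigs higher in males, the 90.2% below 1 FPKM in 1st instar larvae was 72.1% with all 12 libraries, 86.7% with a minimum of 5 FPKM, 92.0% scaled to one sum, 91.9% with quantile normalization, 91.2% with a pseudocount of 0.1 and 88.7% with the replicate block. Of the contigs higher in females, the 33.0% in 1st instar larvae was, in that order, 22.0%, 25.3%, 21.7%, 23.5%, 36.7% and 37.2%. In 5th instar larvae their 32.5% was 26% with all 12 libraries, 22.5% with a minimum of 5 FPKM, 22.2% scaled to one sum and 23.6% with quantile normalization, and without 5th instar replicate 1 the shares were 56.9% for males and 32.1% for females, that alternative being chosen after seeing the data. Among named contigs, 1 changed sign, the uncalled IMP dehydrogenase (c72973_g1_i1), with a range of -0.07 (without female replicate 4) to 0.81 over the fits without 1 library. The number of fragments behind each value is unknown, so low values carry an error that could not be given.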

Other observations

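The protein families given here were picked after their calls were seen. Of 354 Pfam families with at least 10 tested contigs from at least 8 unigenes, 7 had at least 33.3% of their contigs higher in males and 2 had as large a share higher in females. Among astacins, metalloproteases that include hatching enzymes, 11 of 12 contigs were higher in males, with a median difference of 3.99 on the log2(FPKM + 1) scale. Trypsin domains were higher in males in 61 of 164 contigs and higher in females in 3. Among inhibitors of serine proteases, 16 of 18 pacifastin contigs, 8 of 14 Kunitz contigs and 17 of 31 Kazal contigs were higher in males and 0 were higher in females in each. Other inhibitor families gave smaller shares, with 4 of 28 serpin contigs higher in males and a median of 0.13, and with 4 of 45 contigs of the trypsin inhibitor-like domain higher in males, 2 higher in females and a median of -0.34. The papain family of cysteine proteases had 14 of 28 contigs higher in females, 0 higher in males and a median of -4.67. The other family on that side, the cathepsin propeptide inhibitor domain, had 9 of 26 higher in females, 4 higher in males and a median of -1.11. Of all contigs, 6.28% were higher in males and 1.76% higher in females.

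Transcripts of the nucleolus and ribosomal RNA processing, a word set also chosen after the calls were seen, had 20 of 46 contigs higher in females and 0 higher in males, with a median of -1.91. Fibrillarin (c54568_g1_i1), which methylates ribosomal RNA, had 4.72 and 7.42 FPKM in the male pools, against 166 and 127 FPKM in the female pools. An nr description was held by 60.7% of contigs higher in males, 83.7% of those higher in females and 68.5% of all contigs tested. Of the contigs with no description in nr or Swiss-Prot, 620 were among the 1581 higher in males and 72 among the 443 higher in females. One of those with the largest differences in females, c53384_g1_i1, had 6.25 and 6.96 FPKM in the male pools, against 637 and 1526 FPKM in the female pools, and a mean of 0.205 FPKM in 1st instar and 1.27 FPKM in 5th instar larvae.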
